A study of Mus musculus with 6 samples.

Results

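Trophoblast cells of the mouse embryo at embryonic day 5.0 (E5.0) were set against those at E4.75, the hours in which the blastocyst settles into the uterine wall. There were 1012 such cells, 653 in the E5.0 library and 359 in the E4.75 library, of 8052 cells kept in these 2 libraries and 21856 kept in the whole series. A barcode counted as a cell if it showed 1500 genes or more and drew no more than 15% of its unique molecular identifiers (UMIs, each counting 1 captured RNA molecule) from mitochondrial genes. Cells were chosen by summed marker UMIs per 10000 UMIs of the cell. The sum of Tfap2c, Gata3, Rhox6, Rhox9, Phlda2 and Wnt7b had to be at least 5, the endoderm sum (Cubn, Lrp2, Dab2 and Amn) under 10 and the epiblast sum (Pou5f1, Slc7a3, Pim2 and L1td1) under the trophoblast sum. Fewer than 3 UMIs of Prl3d1, Prl3d2 and Prl3d3, which mark trophoblast giant cells, were allowed. Kept cells with 3 or more (162 at E5.0 and 52 at E4.75) stand outside and are called giant cells below. They were chosen by these UMIs alone, and not all of them met the other trophoblast conditions. These 17 genes chose the cells, and their own values are given only as a description. The trophoblast sum is a graded quantity: 89 cells at E5.0 and 53 at E4.75 lay between 5 and 6, and 90 and 39 cells that met the other conditions lay between 4 and 5.

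The series holds 6 libraries of dissociated whole embryos, 1 for each stage sampled between E3.5 and E5.5, made with droplet-based 3′ single-cell RNA sequencing. Embryos of both libraries compared here came from B6SJLF1/J females aged 7 weeks mated with B6CBAF1/J males, were dissected from uteri, pooled, dissociated with Accumax and loaded without a filter. No genetic change, drug or control treatment separates them, and the labels differ in stage alone. Each stage rests on 1 library, so replicate error is unknown, no test or p-value is given, and stage cannot be told apart from anything else that differed between the 2 preparations. Levels are UMI counts per 1000000 (CPM) of the summed trophoblast counts, with exact 95% Poisson intervals that cover counting error only.

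Trophoblast is the first lineage to leave the embryo proper. In the blastocyst it forms the trophectoderm, an epithelium that pumps fluid into the cavity. Its polar part, over the inner cell mass, goes on dividing under FGF signals and becomes the extraembryonic ectoderm and the ectoplacental cone, whereas its mural part stops dividing, copies its genome without division and turns into invasive primary giant cells.

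The marker Elf5, an ETS factor of trophoblast stem cells that took no part in the choice, was present in nearly all the cells. With every cell thinned to 10000 UMIs (626 cells at E5.0 and 334 at E4.75, with 27 and 25 shallower cells left out), 93.9% of E5.0 and 91.6% of E4.75 trophoblast cells held an Elf5 UMI. In epiblast cells, which should lack it, the shares were 2.81% and 2.00%. Without thinning the trophoblast shares were 98.2% and 94.4%. The summed Elf5 level was 319.7 CPM (95% interval 312 to 328) at E5.0 and 294 CPM (286 to 303) at E4.75. Of the markers used by the rule, Tfap2c stood at 248 and 333 CPM, Rhox6 at 48.9 and 36.4 CPM, and Rhox9 at 11.2 and 7.65 CPM, in E5.0 and E4.75 cells. Rhox6 was found in 37.6% of E5.0 and 32.1% of E4.75 endoderm cells at the fixed depth, above its 31.9% and 23.7% of trophoblast cells, so it does not set trophoblast apart. Since the rule used these 3 markers, the label rests on Elf5.

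Trophoblast made up 11.9% of kept cells at E5.0 (exact binomial interval 11 to 12.7%) and 14.1% at E4.75 (12.8 to 15.5%). Its cells were shallower at E5.0, with a median of 22465 UMIs and 4748 genes, against 38655 UMIs and 6247 genes at E4.75, and epiblast cells differed likewise, with 18934 and 29710.5 UMIs. Median mitochondrial shares were 3.07% and 3.79%. The libraries shared 5 barcodes, none of them in trophoblast cells. Markers of maternal tissue were scarce: none of the 15 decidual and stromal markers reached 10 CPM in either library, and their summed level was 6.19 CPM at E5.0 and 13.3 CPM at E4.75, with Col1a2, Col3a1 and Hoxa11 at 0 counts in both. The 15 blood and immune markers summed to 17.9 and 16.1 CPM, of which Cd52 made up 17.2 and 14.8 CPM, and Ptprc was at 0 in both. Xist, expressed from the inactive X chromosome of female cells, was at 325 and 377 CPM, and the Y-linked Ddx3y at 22.4 and 18.2 CPM.

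Of 7949 genes at 10 CPM or more in either library, 40 (0.503%) were at least 2-fold higher in E5.0 trophoblast and 142 (1.79%) at least 2-fold lower. Ratios are log2 of CPM plus 10, a scale that understates the change of genes with few counts, and rose, fell and within 2-fold refer below to this scale. The median over all genes was -0.12, and median-of-ratios scaling, whose shift of all ratios was -0.14, gave 82 genes higher and 100 lower. In epiblast cells of the same libraries 0.238% of 8398 genes were higher and 1.33% lower, and in endoderm cells 0.512% of 8795 were higher and 0.171% lower. These contrasts share the libraries with the trophoblast contrast.

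**Figure D1:**
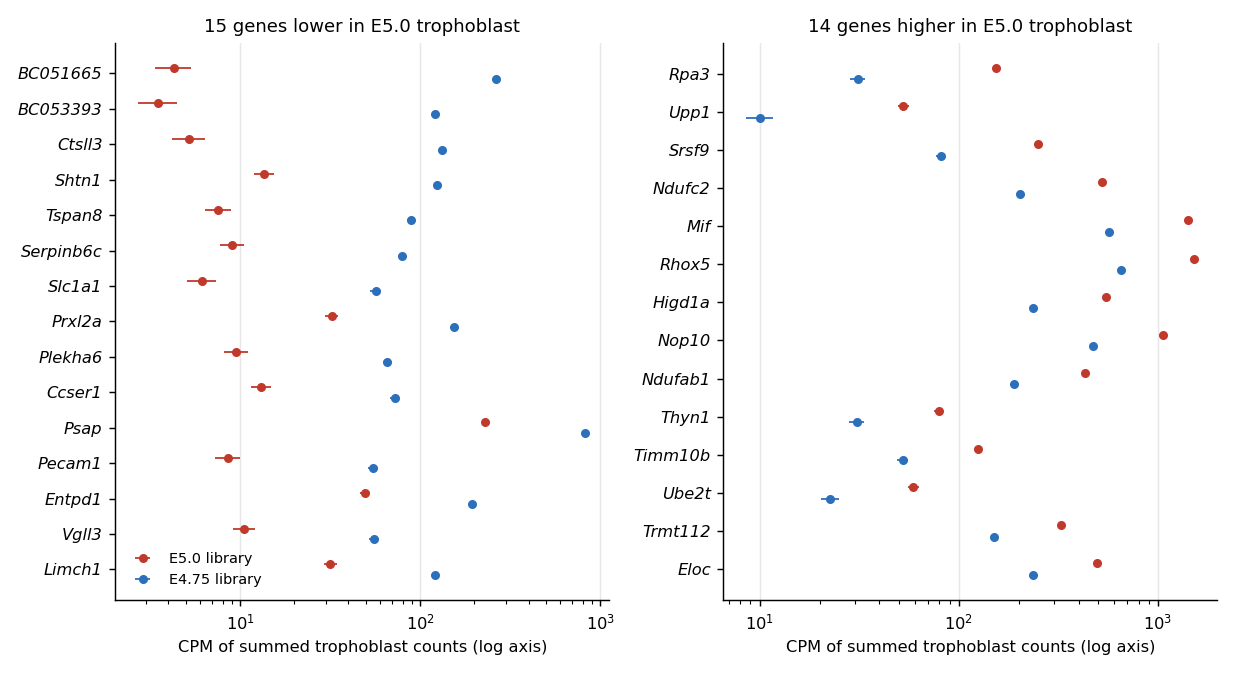
Summed trophoblast level, in CPM on a log axis, of the 15 genes that fell most (left panel) and 14 of those that rose most (right panel) by the naming rule. Points are the single E5.0 library (red) and the single E4.75 library (blue), and bars are exact 95% Poisson intervals, many narrower than the point. BC051665 was at 4.27 CPM in E5.0 and 262 CPM in E4.75 cells, the widest gap shown.

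The 3 genes with the lowest ratios were BC051665, BC053393 and Ctsll3. BC051665 had 78 counts in E5.0 cells, or 4.27 CPM (3.38 to 5.33), and 4356 counts in E4.75 cells, or 262 CPM (254.5 to 270.1). Ctsll3, a cathepsin L-like gene, had 5.2 CPM (4.21 to 6.36) and 133 CPM (127 to 139), and BC053393 had 3.51 CPM (2.70 to 4.48) and 121 CPM (116 to 127). The plain ratios of E4.75 to E5.0 were 61.4 for BC051665, 25.6 for Ctsll3 and 34.6 for BC053393. Of the E5.0 UMIs of these 3 genes together, 89.5% came from 1 cell. The E5.0 levels and these ratios therefore rest mostly on that cell, which the Poisson intervals do not cover. On GRCm38, BC051665 (ENSMUSG00000042243, chromosome 13, 60781887 to 60786364) and Ctsll3 (ENSMUSG00000056728, chromosome 13, 60798250 to 60802849) are protein-coding neighbours on the minus strand, and BC053393 (ENSMUSG00000046974, chromosome 11, 46571536 to 46589232) lies on the plus strand. The longest annotated transcripts of the neighbours are identical at 87.4% of 1321 aligned bases, with a longest shared run of 74 bases, so the way reads were divided between these 2 genes is uncertain. Over their last 300 bases, where 3′ reads begin, identity is 76.6%.

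Promoter windows of these 3 genes are shown because the genes fell together. They run from 250 bases before to 50 bases after the annotated start, 5′ to 3′ on the strand of the gene, from RefSeq on GRCm38.p6, which held all 3 symbols. BC051665 lies at chr13:60786315-60786614 and Ctsll3 at chr13:60802795-60803094, both on the minus strand, and BC053393 at chr11:46571263-46571562 on the plus strand. Capitals mark TATAAA.
BC051665: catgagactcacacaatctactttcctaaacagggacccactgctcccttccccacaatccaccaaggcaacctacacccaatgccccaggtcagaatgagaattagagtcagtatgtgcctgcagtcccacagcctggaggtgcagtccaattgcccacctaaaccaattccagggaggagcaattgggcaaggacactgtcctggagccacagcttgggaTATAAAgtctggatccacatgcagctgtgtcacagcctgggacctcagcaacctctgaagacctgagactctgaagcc
Ctsll3: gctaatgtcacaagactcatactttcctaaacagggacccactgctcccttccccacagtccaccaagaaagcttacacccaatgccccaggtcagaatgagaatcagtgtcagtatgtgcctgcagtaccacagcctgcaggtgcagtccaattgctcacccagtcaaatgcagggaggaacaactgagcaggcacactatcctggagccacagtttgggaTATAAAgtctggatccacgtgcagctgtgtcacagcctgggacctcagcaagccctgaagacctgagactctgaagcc
BC053393: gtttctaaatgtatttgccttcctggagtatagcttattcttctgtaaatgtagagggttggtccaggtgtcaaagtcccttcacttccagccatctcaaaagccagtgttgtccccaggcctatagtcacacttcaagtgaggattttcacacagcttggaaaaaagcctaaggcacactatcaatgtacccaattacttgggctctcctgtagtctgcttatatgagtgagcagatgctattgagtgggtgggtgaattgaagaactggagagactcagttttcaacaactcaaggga
The windows of BC051665 and Ctsll3 are identical at 89.3% of 298 aligned bases. Both hold TATAAA, which begins 28 bases before the start, a motif present on either strand in 13.6% of the 32851 windows of this length. BC053393 has no TATAAA in this window. It holds 1 match to GCCNNNGGC, the AP-2 motif, which is in 16.6% of all windows and in neither of the other windows. AGATAA, a motif of the family of Gata2 and Gata3 (in 11.2% of windows), GGAATG, a motif of TEAD factors (14.7%), and TGANTCA, the AP-1 motif (7.81%), were looked for on both strands and are not in any of the 3 windows. A match is a description of the letters, not evidence of binding.

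The 3 genes were held by few of the E4.75 cells. Their sum per 10000 UMIs was at least 10 in 33 of 359 E4.75 trophoblast cells, or 9.19% (exact binomial interval 6.41 to 12.7%), and in 1 of 653 E5.0 cells, or 0.153% (0.00388 to 0.850%). At E4.75, no cell lay between 5 and 10, the highest cell below was at 4.82, and the 33 cells had a median of 86.8 and held 98.1% of the UMIs of the 3 genes. The 1 cell at E5.0 was at 145 and held 89.5% of the E5.0 UMIs of the 3 genes, and the highest cell below was at 0.867. In epiblast no cell of 1941 at E5.0 and none of 860 at E4.75 reached 10, which allows shares of up to 0.155% and 0.349%, and in endoderm 0 of 2528 and 3 of 1190 did. Among giant cells 0 of 162 did at E5.0, and 4 of 52 at E4.75, or 7.69% (2.14 to 18.5%). The limit of 10 and the grouping of these cells were chosen after the values were seen.

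**Figure D2:**
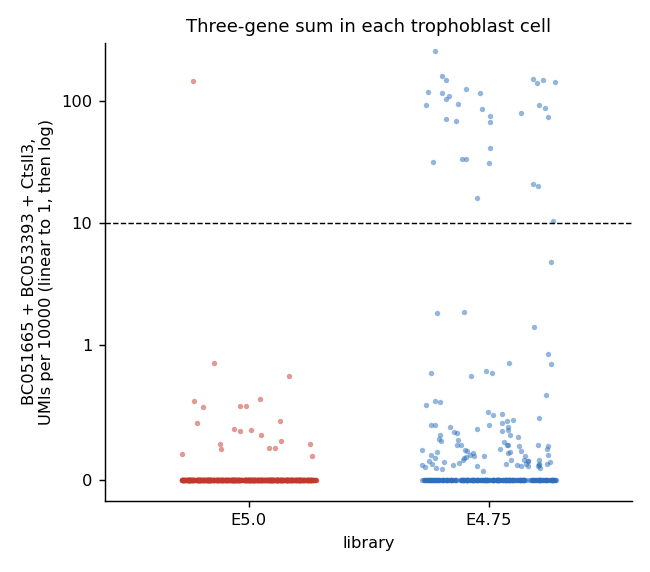
Sum of BC051665, BC053393 and Ctsll3 in each trophoblast cell, in UMIs per 10000 (linear to 1, then logarithmic), with 653 E5.0 cells at left and 359 E4.75 cells at right and points spread sideways only for legibility. Above the dashed line at 10 lie 1 E5.0 cell and 33 E4.75 cells, and nearly all other cells are at or near 0.

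Within the E4.75 library the 33 cells differed from the other 326 in much more than these genes: of 8604 genes at 10 CPM or more in either set, 946 (11%) were at least 2-fold higher in them and 572 (6.65%) lower. The sets were cut on expression of the same cells, so this is a description of what the cells hold. Prosaposin (Psap), the precursor of lysosomal saposins, stood at 6247 CPM in the 33 cells and 522 CPM in the others. Keratin 8 (Krt8) was at 2345 and 554 CPM, the cyclin-dependent kinase inhibitor Cdkn1c at 386 and 34.6 CPM, and the placental gene Plac1 at 1009.7 and 219 CPM. The glutamate carrier Slc1a1 (552 and 28.4 CPM), the natriuretic peptide gene Nppb (313 and 17.3 CPM), the WNT effector Tcf7l2 (947 and 69.6 CPM) and Dppa1 (267 and 0.382 CPM) followed the same pattern. Elf5 was at 344 and 292 CPM and present in 33 of 33 cells. Eomes, the T-box factor of trophoblast stem cells, was at 677 and 399.9 CPM, and the FGF receptor Fgfr2 at 203 and 266 CPM.

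Other genes were low in the same 33 cells. Cdx2, the caudal-type factor of the trophectoderm and its stem cells, was at 3.37 CPM in them (3 counts) and 79.5 CPM in the others, and Bmp4 at 8.98 and 117.7 CPM. Mki67, a proliferation marker, was at 23.6 and 129.6 CPM, Top2a, the DNA topoisomerase of mitosis, at 79.7 and 358 CPM, and Rhox5 at 49.4 and 689 CPM. The 33 cells had fewer UMIs (median 25532 against 46024), more mitochondrial UMIs (7.22% against 3.70%) and a higher trophoblast sum (13.7 against 8.23 per 10000). The part of depth and RNA quality in their profile was not tested. At a mitochondrial limit of 10% there were 21 such cells, 6.10% of E4.75 trophoblast.

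Part of the lower group rested on those cells. Without cells at 10 or more, 99 genes fell, and 93 of the 142 genes stayed past 2-fold. Tcf7l2 was at 50.6 and 69.6 CPM in the remaining E5.0 and E4.75 cells and Dppa1 at 0.055 and 0.382 CPM, so neither stayed past it. Tspan8, a tetraspanin of epithelial membranes, was at 7.56 CPM in all E5.0 cells and 88.6 CPM in all E4.75 cells, and at 7.24 and 64.3 CPM without the group. Serpinb6c, an intracellular serpin, was at 9.04 and 79.5 CPM, and at 8.72 and 61.6 CPM without it. Slc1a1 was at 6.13 and 56.5 CPM, and at 5.21 and 28.4 CPM. Psap was at 229 CPM (222 to 236) in E5.0 cells and 829 CPM (815 to 843) in E4.75 cells, and at 223 and 522 CPM without the group. At the fixed depth a Tspan8 UMI was found in 7.35% of E5.0 and 48.8% of E4.75 trophoblast cells (15.3% and 80.5% unthinned), against 2.34% and 3.42% of epiblast cells.

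A second group of genes that fell stood higher in the giant cells outside the rule than in trophoblast, in both libraries. Where the cells lay in the embryo was not measured, and Egfr and Plac1 belong to the ectoplacental cone list. Pecam1, an adhesion molecule best known from endothelium, was at 8.54 CPM (7.26 to 10.0) in E5.0 cells and 54.5 CPM (51.0 to 58.2) in E4.75 cells. Cdh5, VE-cadherin, was at 57.1 and 127 CPM, and Entpd1, the surface nucleotidase CD39, at 49.7 and 194 CPM. A Cdh5 UMI was found in 29 of the 33 E4.75 cells of the BC051665 group and in 180 of the other 326. Cells with Cdh5 therefore overlap with the BC051665 group. The second group of genes was not uniform there: Entpd1 was at 616 CPM in the 33 cells and 170 CPM in the others, but Pecam1 at 32.5 and 55.8 CPM. Egfr, the receptor of EGF family ligands, was at 37.5 and 129.9 CPM. Gata2, a GATA factor of giant cells, was at 50.2 and 113 CPM, and Plac1 at 108 and 262 CPM. Pecam1 and Cdh5 are also the 2 genes that fell among the 3 of 12 endothelial markers past the level limit, and the list summed to 111 and 226 CPM. The other one, Egfl7, was at 30.9 and 26.7 CPM, and of those below the limit Eng was at 8.49 and 8.43 CPM, Esam at 4.00 and 5.66 CPM, Kdr at 0.712 and 2.17 CPM and Emcn at 0.110 and 0 CPM. Their part in the result was not tested. Of 10 giant cell genes past the level limit, 9 had ratios below 0, with a median of -0.54. Hand1, a giant cell marker, was at 564 and 640 CPM, and Bhlhe40 was higher at E5.0, at 15.3 and 10.8 CPM. Of the 10, beside 1.79% of all genes that fell, 0 rose and 2 fell (Cdh5 and Gata2). Both lay close to 2-fold: the number that fell was 0 without the BC051665 group, where the log2 ratios were -0.99 for Cdh5, -0.89 for Gata2 and -0.98 for Plac1, and 0 under median-of-ratios scaling, at a trophoblast sum of at least 10 and in cells without Cdh5. Pecam1 (-1.83), Entpd1 (-1.60) and Egfr (-1.42) stayed past 2-fold without the group.

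The giant cells outside the rule held these genes in both libraries, with Cdh5 at 486 and 377 CPM, Plac1 at 716 and 702 CPM, Gata2 at 276 and 307 CPM and Egfr at 88.5 and 209 CPM at E5.0 and E4.75. Pecam1 stood at 106.5 and 153 CPM in giant cells of the E5.0 and E4.75 libraries, Entpd1 at 236.5 and 337 CPM, and Vgll3, another gene that fell and a cofactor of TEAD factors, at 57 and 85.1 CPM. With the limit on Prl3d UMIs lifted, the trophoblast comprised 784 cells at E5.0 and 401 at E4.75, and 89 genes fell. The giant cell list then had a median of -0.08 over 16 genes past the level limit, of which 3 rose and 0 fell. It holds Prl3d1, Prl3d2 and Prl3d3 themselves, so this median and the -0.54 over 10 genes cover different genes.

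Cdh5 and Plac1 marked one side of the trophoblast and Cdx2 the other. At 10000 UMIs per cell a Cdh5 UMI was found in 20.0% of E5.0 cells (16.9 to 23.3%) and 44.0% of E4.75 cells (38.6 to 49.5%), a Plac1 UMI in 25.7% and 56.9%, and a Cdx2 UMI in 42.2% and 35.9%. Unthinned, the shares were 25.6% and 58.2% for Cdh5, 34.6% and 63.8% for Plac1, and 59.0% and 52.6% for Cdx2. The epiblast shares were 0.780% and 1.18% for Cdh5 and 0.832% and 1.18% for Cdx2. Among Cdx2-positive cells 3.41% at E5.0 and 11.7% at E4.75 held Cdh5, and among Cdx2-negative cells 32% and 62.1% did. Plac1 was held by 3.79% and 20.8% of Cdx2-positive cells, and by 41.7% and 77.1% of Cdx2-negative ones.

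When only cells with 0 Cdh5 UMIs were compared (486 at E5.0 and 150 at E4.75), the falling genes split. Plac1 was at 17.5 and 17.2 CPM in those cells, Itgb3, an integrin beta chain, at 8.23 and 9.37 CPM, and Plekha6 at 4.34 and 9.06 CPM, and Egfr at 24.7 and 48.7 CPM lay within 2-fold on the log2 scale (-0.76). Tspan8 stayed lower, at 6.63 and 54.8 CPM, as did Limch1, an actomyosin regulator, at 24.7 and 124 CPM, Serpinb6c at 5.64 and 42.3 CPM, and Prxl2a, a peroxiredoxin-like gene, at 27.3 and 102 CPM. Of the 142 genes 54 stayed past 2-fold in the cells without Cdh5, and 138 had a ratio below 0. Whether a cell shows 0 UMIs also depends on its depth, which was lower at E5.0, and the part of depth in this split was not tested.

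Genes of the blastocyst epithelium had mostly lower values at E5.0. Of 24 blastocyst trophectoderm genes past the level limit, 0 rose and 6 fell (Ctsll3, Tspan8, Dsp, Atp1b1, Dppa1 and Krt7), with a median of -0.56 and 21 below 0, as were 5137 of all 7949 genes. Without the BC051665 group 3 fell (Tspan8, Dsp and Atp1b1) and the median was -0.40. Over all genes 1.79% fell, and this list was drawn up with results of these data known. Desmoplakin (Dsp), which anchors keratin at desmosomes, was at 64.2 CPM in E5.0 cells and 175 CPM in E4.75 cells, and at 46.5 and 152 CPM in cells without Cdh5. The keratins Krt8 (391 and 650.4 CPM), Krt18 (514 and 791 CPM) and Krt19 (113 and 135 CPM) lay within 2-fold, and Krt7 fell to 75.2 CPM, against 164 CPM at E4.75. Among 12 keratin and desmosome genes 0 rose and 2 fell, with a median of -0.57.

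The sodium pump, which drives fluid into the blastocyst cavity, gave lower values too. Atp1b1, the beta 1 subunit of the sodium pump, fell to 89.0 CPM (84.7 to 93.4) in E5.0 cells, against 210.0 CPM (203 to 217) in E4.75 cells, and to 53.9 CPM, against 127 CPM, in cells without Cdh5. Atp1b3, another beta subunit, was at 149 and 228 CPM, within 2-fold. Of 9 pump, aquaporin and ion transport genes 0 rose and 2 fell, the other being Fxyd4, a small regulator of the pump, at 9.09 and 29.6 CPM, and the median was -0.58. Of 23 junction and polarity genes 1 fell (Shroom3, an organiser of apical actin, at 74.2 and 169 CPM), beside 1.79% of all genes. The median was -0.36. Cdh1, E-cadherin, was at 425 CPM in both libraries, Epcam at 645 and 573 CPM, and the claudins Cldn4 at 115 and 196 CPM and Cldn3 at 195 and 149 CPM.

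Of 15 adhesion, integrin and invasion genes 2 fell, beside 1.79% of all genes, and the median was -0.35. Itgb3 was at 13.4 CPM in E5.0 cells and 46.3 CPM in E4.75 cells (13.2 and 32.4 CPM without the BC051665 group, a log2 ratio of -0.87), and Itga1, a collagen and laminin receptor chain, at 3.56 and 19 CPM. Itgav, the partner of Itgb3, was at 73.9 and 119 CPM. In the basement membrane list 1 of 6 genes fell, the linker nidogen 1 (Nid1), at 55.0 and 157 CPM. The neuropilin Nrp2, a receptor for semaphorins and VEGF, fell as well, to 15.3 CPM, against 46.4 CPM.

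**Figure D3:**
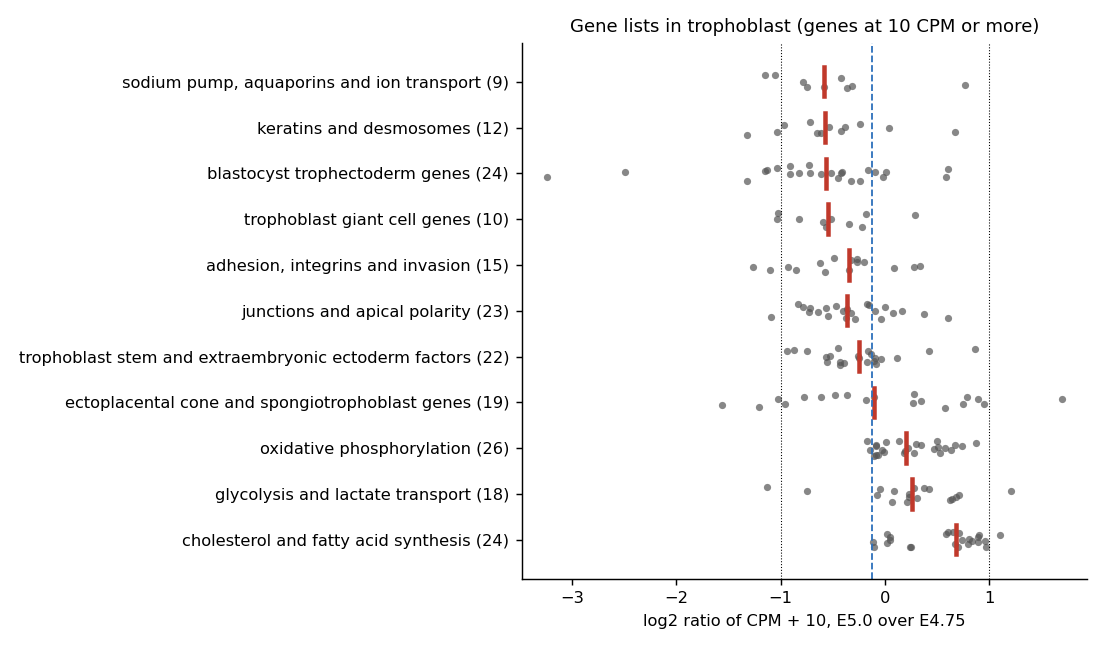
Log2 ratio of CPM plus 10, E5.0 over E4.75, for each gene (grey point) of 11 lists in trophoblast, with the number of genes in brackets. Red bars are list medians, the blue dashed line is the median of all 7949 genes at -0.12, and dotted lines mark 2-fold. The sodium pump, keratin, blastocyst trophectoderm and giant cell lists centre between -0.58 and -0.54. The junction list centres at -0.36, the adhesion list at -0.35 and the cholesterol list at 0.68.

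Factors of trophoblast stem cells and the extraembryonic ectoderm lay within 2-fold. Of 22 such genes past the level limit, 0 rose and 0 fell, beside 0.503% and 1.79% of all genes. The median was -0.25, and 19 had ratios below 0, as did 5137 of all 7949 genes. Cdx2 was at 69.8 and 75.4 CPM in E5.0 and E4.75 cells, Eomes at 305 and 415 CPM, and Esrrb, an orphan nuclear receptor, at 29.4 and 33.2 CPM. Fgfr2 was at 231 and 263 CPM and Bmp4, the signal that the extraembryonic ectoderm sends to the epiblast, at 92.7 and 112 CPM. The lowest ratios, all within 2-fold on the scale of CPM plus 10, were those of Nr6a1 (61.7 and 128 CPM), Tfap2a (23.3 and 50.7 CPM) and Zfp42 (202 and 346 CPM). With CPM plus 1, 1 gene of the list rose and 2 fell. At a trophoblast sum of at least 10, 0 of 21 rose and 2 fell. In cells without Cdh5 1 rose, and with cells thinned to 10000 UMIs 1 fell.

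Sox2, an HMG-box factor of the extraembryonic ectoderm as well as the epiblast, went the other way. It was at 13.7 CPM (12 to 15.5) in E5.0 trophoblast and 3.01 CPM (2.23 to 3.97) in E4.75 trophoblast, a log2 ratio of 0.86 and a plain ratio of 4.55. At the fixed depth 10.4% of E5.0 and 1.5% of E4.75 trophoblast cells held a Sox2 UMI (21.4% and 8.91% unthinned). In epiblast, where the gene is expressed, the shares were 42.6% and 50.5%, and the log2 ratio was -0.33. Pou5f1, from the rule, was held by 7.03% and 7.19% of trophoblast cells, at 13.9 and 9.27 CPM. Of 9 epiblast markers past the level limit 8 had ratios above 0 in trophoblast, with a median of 0.31, against -0.12 over all genes. The median epiblast sum of trophoblast cells was 1.26 per 10000 at E5.0 and 0.929 at E4.75. Its part in the Sox2 values was not tested. Sox3, the X-linked relative of Sox2, was at 39.3 CPM (36.5 to 42.3) and 2.11 CPM (1.47 to 2.93), a log2 ratio of 2.03 and the highest of the 40 genes that rose. In epiblast it was at 50.7 and 41.3 CPM and in endoderm at 18 and 2.22 CPM. It fell short of the 50 CPM that the naming rule asked for and was picked out after its values were seen.

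Of 19 genes of the ectoplacental cone and spongiotrophoblast 1 rose and 3 fell, beside 0.503% and 1.79% of all genes. The median of -0.11 turned to 0.02 under median-of-ratios scaling. Phlda2, an imprinted gene that restrains placental growth, was the one that rose, at 795 CPM (783 to 809) in E5.0 cells and 239 CPM (232 to 247) in E4.75 cells, but it was one of the genes that chose the cells. It had a UMI in 94.4% and 70.4% of cells at the fixed depth. Ascl2, an imprinted basic helix-loop-helix factor of the ectoplacental cone, was at 46.4 and 22.8 CPM, Cited1, a transcriptional cofactor, at 40.6 and 17.3 CPM, and Plac8 at 77.1 and 35.0 CPM, each inside 2-fold on the log2 scale. Peg10, a retrotransposon-derived gene needed for the placenta, was at 146 and 82.7 CPM and Igf2, the growth factor, at 115 and 73.9 CPM. Egfr, Plac1 and Fosl1 (21.0 and 53.2 CPM), an AP-1 subunit of giant cells, fell, of which Egfr alone stayed past 2-fold without the BC051665 group, and Tpbpa, the marker of mature spongiotrophoblast, had 0 counts in both libraries. Of 21 imprinted genes Phlda2 alone passed 2-fold, and H19 was at 682 and 606 CPM.

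Rhox5, an X-linked homeobox gene of extraembryonic tissue, rose to 1519 CPM (1501 to 1537) at E5.0, against 655 CPM (642 to 667) at E4.75. At the fixed depth 99.7% of E5.0 and 86.2% of E4.75 trophoblast cells held it, and 27.4% and 20.0% of epiblast cells. Without the BC051665 group it was at 1520.3 and 689 CPM, and in cells without Cdh5 at 1728 and 1017 CPM, within 2-fold. Gjb5, a trophoblast connexin outside the lists, was at 129 and 63.2 CPM, just inside 2-fold on the log2 scale. Rhox1, from the same cluster as Rhox5, was at 11.1 and 5.30 CPM, and of the 4 Rhox genes past the level limit 1 rose.

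Of the 14 genes named here that rose, 13 had ratios above 0 in all 3 lineages. They were chosen for a high ratio in trophoblast, so only the epiblast and endoderm ratios were free to vary. The median ratio over all genes was -0.12 in trophoblast, -0.10 in epiblast and -0.05 in endoderm. The share of all genes above 0 in all 3 lineages was not counted. Rpa3, a subunit of the single-strand DNA binding complex, had a log2 ratio of 1.99 in trophoblast (154 and 31.2 CPM), 1.63 in epiblast and 1.68 in endoderm. Srsf9, a splicing factor, had log2 ratios of 1.51 in trophoblast, 0.88 in epiblast and 0.60 in endoderm. For Mif, a cytokine, they were 1.30, 0.88 and 0.86, and for Nop10, a part of box H/ACA ribonucleoproteins, 1.15, 0.92 and 0.96. The complex I subunits Ndufc2 and Ndufab1, the mitochondrial import factor Timm10b, the tRNA methyltransferase partner Trmt112, elongin C (Eloc), the ubiquitin carrier Ube2t, Higd1a, Thyn1 and Rhox5 made up the rest. Over these 13 genes the ratio ran between 1.05 and 1.99 in trophoblast, between 0.46 and 1.63 in epiblast and between 0.17 and 1.68 in endoderm. Since all 3 contrasts rest on the same 2 libraries, a difference between the preparations cannot be told apart from stage for these genes.

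Upp1 did not follow that pattern. Upp1, uridine phosphorylase, was at 52.8 CPM (49.5 to 56.2) in E5.0 trophoblast and 9.99 CPM (8.53 to 11.6) in E4.75 trophoblast, and at 112 and 287 CPM in epiblast, a log2 ratio of 1.65 in the one and -1.29 in the other. In endoderm it was at 28.6 and 30.2 CPM. A Upp1 UMI was found in 33.1% and 7.19% of trophoblast cells and in 55.6% and 87.3% of epiblast cells at the fixed depth.

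Most genes of the cholesterol pathway had higher values in E5.0 trophoblast. Of 24 genes of cholesterol and fatty acid synthesis 22 had ratios above 0, with a median of 0.68 in trophoblast, -0.34 in epiblast and 0.43 in endoderm, while 2812 of all 7949 genes had ratios above 0 in trophoblast. Hmgcs1, an early enzyme of the route, was at 102 and 50.1 CPM, Idi1 at 116 and 54.7 CPM, Msmo1 at 97.5 and 45.2 CPM, and Dhcr7, the last enzyme of the route, at 29.9 and 11.4 CPM. All of these lay within 2-fold on the log2 scale, as did the desaturases Scd1 (118 and 63.4 CPM) and Scd2 (242 and 135 CPM). Of the 24 genes 1 rose and 0 fell, beside 0.503% and 1.79% of all genes. Fasn was at 103 and 99.4 CPM and Acaca at 98.5 and 107 CPM.

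**Figure D4:**
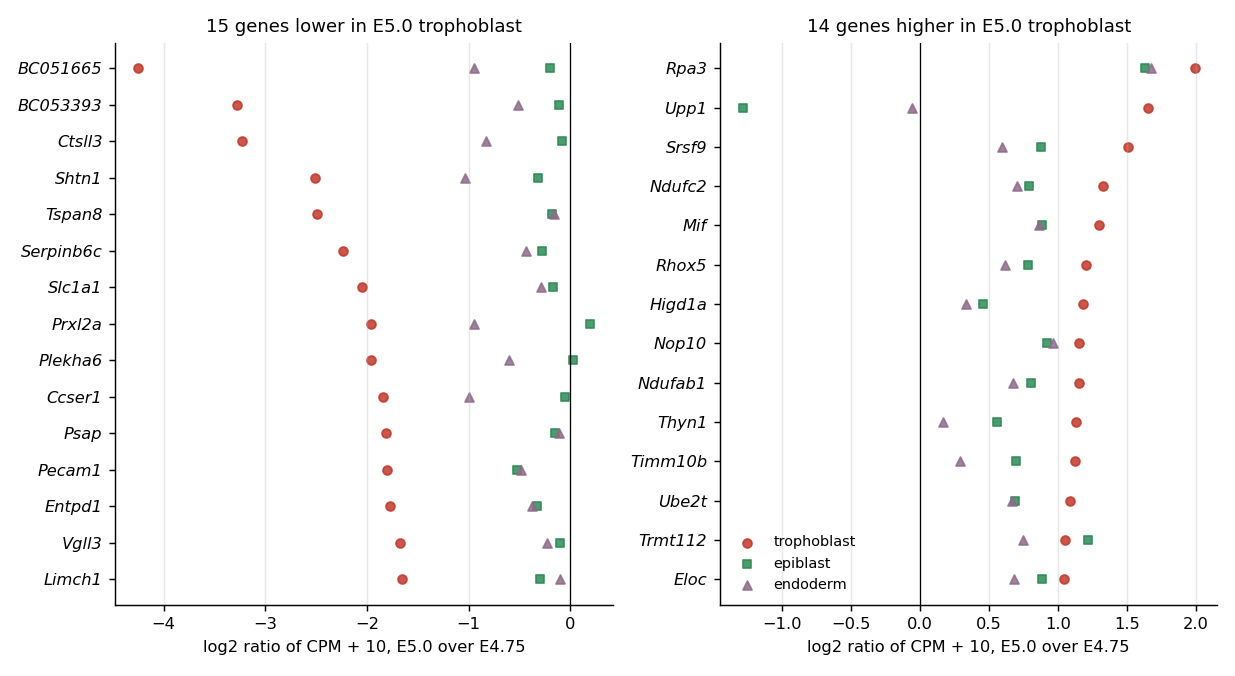
Log2 ratio of CPM plus 10, E5.0 over E4.75, in trophoblast (red circles), epiblast (green squares) and endoderm (purple triangles) for the 15 genes that fell most (left) and 14 of those that rose most (right) in trophoblast. Genes at left lie between -0.52 and 0.19 in epiblast, whereas at right all but Upp1 lie above 0 in both other lineages.

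Values of the falling genes in the other lineages come from the same libraries. For the 15 genes with the lowest ratios in trophoblast, between -4.25 and -1.66, the values were between -0.52 and 0.19 in epiblast and between -1.04 and -0.11 in endoderm. Many of them were scarce in epiblast to begin with: Entpd1 was at 1.68 and 4.63 CPM there and Slc1a1 at 0.248 and 1.54 CPM, so these ratios say little about that lineage. Shtn1, the shootin gene of actin-based protrusion, was at 13.6 and 125 CPM in trophoblast and at 46.5 and 106 CPM in endoderm. Psap, which every lineage held, was at 61.3 and 69.4 CPM in epiblast and 99.7 and 109 CPM in endoderm. For lysosomal genes in trophoblast, 1 of 20 fell (Psap), beside 1.79% of all genes, and the median was -0.36. Lamp1 was at 284 and 425 CPM and Ctsl at 382 and 314 CPM.

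Metabolic lists moved by small amounts, and over all genes 0.503% rose and 1.79% fell. Of 18 glycolysis and lactate transport genes 1 rose, Ldhb at 16.7 and 1.57 CPM, and 1 fell, hexokinase 2 (Hk2) at 161 and 363 CPM, with a median of 0.26. Ldha, the partner of Ldhb, was at 1348 and 874 CPM and Gapdh at 1365 and 833 CPM. In oxidative phosphorylation 0 of 26 genes passed 2-fold in either direction and the median was 0.20, and the 82 ribosomal protein genes had a median of 0.18 and took 23.8% of UMIs at E5.0 and 21.2% at E4.75. Bnip3 (72.1 and 25.6 CPM) and Higd1a (551 and 237 CPM), which respond to low oxygen, were the 2 genes that rose among 11 of the hypoxia list, whose median was 0.25, while Vegfa was at 17.2 and 17.0 CPM. Of 15 genes of the integrated stress response and tRNA charging 1 fell, Psat1 of serine synthesis, at 240.0 and 639 CPM, and the median was -0.51 in trophoblast and 0.21 in epiblast. Trib3 (14.2 and 30.0 CPM) and Chac1 (18.6 and 42.0 CPM), both targets of ATF4, were lower, but not past 2-fold on the scale of CPM plus 10. The amino acid carrier Slc6a14 fell to 4.44 CPM, against 40.6 CPM, and was the 1 gene of 16 nutrient carriers to do so.

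Cell cycle genes differed little, but over all genes only 0.503% rose and 1.79% fell, so lists of this size may well hold none. None of 24 S phase genes and none of 23 G2 and M phase genes passed 2-fold, with medians of 0.11 and -0.04, and Pcna was at 295 and 168 CPM, Mki67 at 82.7 and 124 CPM and Top2a at 300.5 and 343 CPM. The immediate early genes that dissociation can induce were near level, with 0 of 16 past 2-fold, a median of 0.05 and Fos at 295 and 297 CPM. The linker histone Hist1h1b and the histone Hist1h4d fell, at 79.7 and 205 CPM and at 23.1 and 73.3 CPM, and their ratios were -1.31 and -1.21 in epiblast and -1.50 and -0.85 in endoderm.

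The 2 stages were also placed in the course of the series, where the same rule found 167 trophoblast cells at E4.5, 758 at E5.25 and 1970 at E5.5. BC051665 ran through 715, 262, 4.27, 0 and 0 CPM from E4.5 to E5.5, and the share of cells with the 3 genes at 10 or more was 34.1%, 9.19%, 0.153%, 0% and 0%, where 0 of 758 and 0 of 1970 cells allow up to 0.396% and 0.152%. Tspan8 ran through 269.6, 88.6, 7.56, 2.46 and 0.674 CPM and Psap through 1427, 829, 229, 181 and 197 CPM. For Egfr the levels were 157, 129.9, 37.5, 28.5 and 29.9 CPM and for Pecam1 68.7, 54.5, 8.54, 6.53 and 7.75 CPM, so that most of the difference over the course lay between E4.75 and E5.0. Rhox5 ran through 361, 655, 1519, 1602 and 1194 CPM, and Upp1 through 8.87, 9.99, 52.8, 78.7 and 89.8 CPM. Elf5 stayed between 264 and 319.7 CPM. The E5.25 library was prepared like these 2, whereas the E4.5 embryos were flushed after superovulation of 4-week-old females and the E4.5 and E5.5 cells passed a 20 µm filter.

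**Figure D5:**
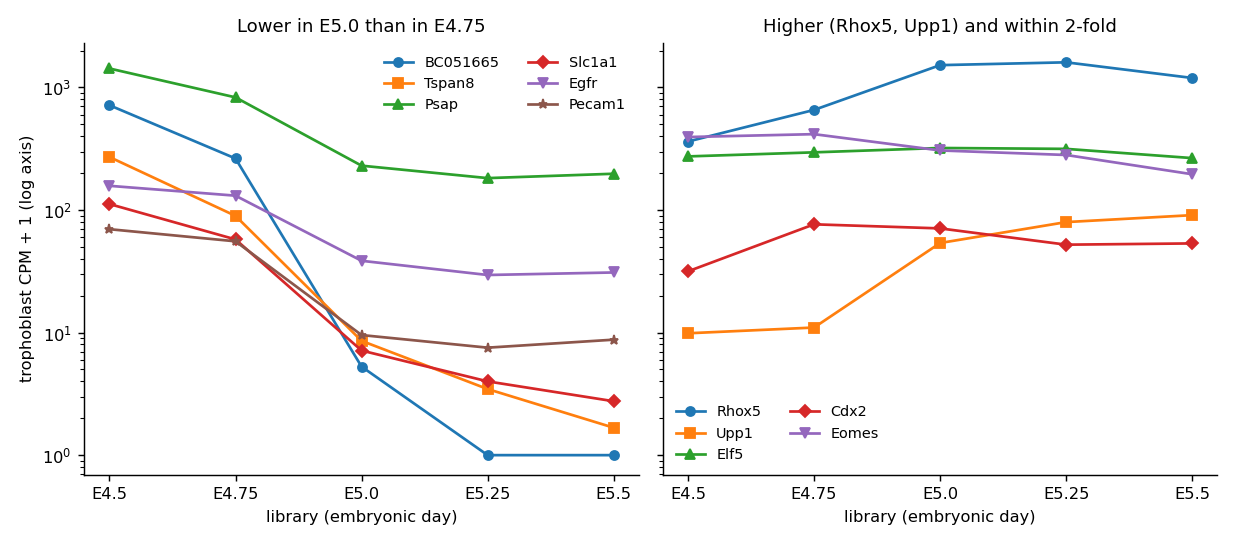
Summed trophoblast level, in CPM plus 1 on a log axis, over the 5 libraries from E4.5 to E5.5, 1 library per stage, for genes that fell between E4.75 and E5.0 (left) and for genes that rose (Rhox5, Upp1) or lay within 2-fold (Elf5, Cdx2, Eomes; right). The steepest drops at left lie between E4.75 and E5.0, where BC051665 had 262 and then 4.27 CPM.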

How the data were processed

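The deposited values are raw UMI counts per gene and cell, made by the authors with Cell Ranger 7.1.0 per the file headers, for 32285 genes. The submitters' processing notes name mm10, GRCm38 and hg38, without saying what hg38 was used for. Counts of the chosen cells were summed per library and scaled to CPM (a total of 1000000), and log2 ratios are E5.0 over E4.75 of CPM plus 10, for genes at 10 CPM or more in either library. Intervals are exact Poisson and Clopper-Pearson at 95%, and cover counting error only. Named genes were the 15 lowest and 15 highest ratios among genes at 50 CPM or more in the higher library, 2-fold apart by plain CPM, past 1.5-fold with cells weighted equally, and at least 0.2 times as high as in the other classes of that library. Mitochondrial, ribosomal and haemoglobin genes, Gm and Rik models and genes of the rule were left out, and list members were named by role. A few genes, 1 of the highest ratios among them, are not reported here. The rule on cells, the 47 gene lists and the named genes were chosen with earlier results of these data known. No doublets were removed from the values given. As an alternative, the cells with the highest Scrublet scores were removed, 242 at E5.0 and 52 at E4.75, of which 16 and 0 were trophoblast. These numbers were set by library size, at 0.8% per 1000 kept cells, and are not counts of detected doublets. The ratio code was tested on simulated data. Python 3.11.15, numpy 2.4.6, scipy 1.17.1, pandas 2.3.3 and scanpy 1.11.5 were used.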

Additional observations from a re-analysis of the deposited data

Results flagged for a closer look

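Upp1 stood out because its ratio ran in opposite directions in different lineages of the same 2 libraries. In epiblast the log2 ratio of E5.0 over E4.75 was -1.29, with 112 CPM at E5.0 and 287 CPM at E4.75, whereas in trophoblast it was 1.65, with 52.8 and 9.99 CPM. The difference between the lineages was not tested, since each stage has 1 library.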

How the results depend on the processing

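No paired analysis was possible because each stage has 1 library. Median-of-ratios scaling gave 82 genes higher, and 45.1% of called genes were then higher, against 22.0% without it. With CPM plus 1, 127 genes were higher and 356 lower. Requiring a trophoblast sum of at least 10 gave 75 higher and 221 lower, a cholesterol median of 0.88, trophoblast shares of 5.49% at E5.0 and 5.18% at E4.75, and 22.0% of E4.75 cells with the BC051665 group. With at most 10% mitochondrial UMIs that share was 6.10%. Without the Prl3d limit 89 genes were lower and the trophoblast shares were 14.2% at E5.0 and 15.7% at E4.75. The giant cell median was then -0.078, over 16 genes that include the Prl3d genes. With Cdh5-negative cells only, the trophoblast shares were 8.83% at E5.0 and 5.89% at E4.75, the BC051665 share at E4.75 was 2.67%, and the ratio of Plac1 turned to 0.014. Weighting cells equally gave 260 genes lower, and thinning to 10000 UMIs gave 215. The causes were not tested. Of the other values of these main results, 169 stayed within their limits. Among the named genes, 430 values moved little, 154 moved more and 1 reversed. Depth limits genes with few counts, and the single libraries limit everything else.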

Other observations

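Genes of the actin cytoskeleton and its anchorage were among those that fell in trophoblast. They were picked after their values were seen and belong to no list. Zyxin (Zyx), a focal adhesion protein, was at 91.6 CPM in E5.0 cells and 282 CPM in E4.75 cells, and the laminin receptor dystroglycan (Dag1) at 166 and 464 CPM. The tropomyosins Tpm1 (429 and 978 CPM) and Tpm4 (153 and 357 CPM) and the motor Myo1d (26.2 and 97.4 CPM) fell too. Myo1d was at 829 CPM in the E4.75 cells of the BC051665 group and 55.9 CPM in the other E4.75 cells. Set against those other cells, its log2 ratio at E5.0 was -0.86, within 2-fold. In epiblast Zyx was at 21.2 and 28 CPM and Dag1 at 71.1 and 93.1 CPM, and in endoderm Zyx was at 85.6 and 90.7 CPM.

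Mt1, a metal-binding metallothionein, rose to 1091 CPM in E5.0 trophoblast, against 499 CPM in E4.75 trophoblast, and stood at 792 and 962 CPM in epiblast. The nuclear RNA Malat1 was at 1502 and 3381 CPM in trophoblast, 2342 and 3705 CPM in epiblast, and 2114 and 3323 CPM in endoderm, lower at E5.0 in every lineage measured.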
